A study of Bos taurus with 8 samples.

Results

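The miRNAs described here are the rows of a bovine miRNA table that carry the prefix bta-miR- and a number from that of miR-2286 to that of miR-3999, with any letter, copy or arm suffix, except miR-2478 and miR-2904. There were 283 such members among the 1028 rows of the table. The rule uses names and no measured value, but it was set with earlier results of these data known. MicroRNAs are short RNAs cut from hairpin precursors, and they repress mRNAs that pair with their seed, the bases near the 5′ end. Extracellular vesicles (EVs) are membrane-bound particles that carry miRNAs between cells, and in the ovarian follicle they are found in the follicular fluid that bathes the oocyte and granulosa cells. miRBase, the reference catalogue, numbers miRNAs roughly in the order in which they were submitted, and many of the numbers in this range were first described in cattle. The table does not hold where a miRNA was first described, and a few of the numbers, such as miR-3120 and miR-3613, also name human miRNAs, so the members are defined here by number only.

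The libraries came from EVs of follicular fluid of open, dry Bos taurus crossbred beef cows, collected by ultrasound-guided ovum pick-up in summer (SUM) and in winter (WIN), with 4 libraries per season. The study used 11 cows, and the same animals were sampled in both seasons. Cows of both groups had received a progesterone device, a GnRH analog and FSH injections before the pick-up, were kept in outdoor pens, and had no age stated in the sources used here. Each library was made from fluid pooled from a pair of animals, with 8 mL per replicate, and which pools share animals between the seasons is not stated. No gene was altered and no animal was kept under a controlled temperature, so heat, day length, feed and the time between the sessions cannot be told apart. The comparison addresses how the EV miRNAs of the follicle differ between the hot and the cool season.

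The libraries held 214004 to 1689467 miRNA reads, and 1 read was worth 0.567 CPM in the deepest library (WIN replicate 3) and 4.02 CPM in the shallowest (SUM replicate 3), where CPM is the read count scaled to library size with the authors' TMM factors. The 3 reads that a count of 0 allows correspond to 1.70 to 12.1 CPM per library, a limit that covers counting error only. Of the marker lists, 3 separated the seasons without overlap. White blood cell miRNAs (4 of 4 detected) summed to 418 to 751 CPM in SUM and 207 to 328 CPM in WIN, muscle miRNAs (3 of 3) to 776 to 909 and 1019 to 1451 CPM, and miRNA names whose reads can come from other RNA classes (miR-1246, miR-2478 and miR-2904) to 3130 to 13806 and 21590 to 69088 CPM. The lists for red blood cells, liver-derived plasma and granulosa cells were detected in full and overlapped between the seasons. These levels stand beside every season difference given below, and their part in those differences was not tested. In bulk fluid, fewer vesicles from a cell type and less of a miRNA per vesicle cannot be told apart.

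Most members were not seen. Of the 283 members, 82 (29.0%) had at least 1 read in at least 1 library and 201 (71.0%) had 0 reads in all 8, which over the pooled libraries allows each of them up to 0.523 CPM of recovered reads. Only 9 members were seen in all 8 libraries, and 26 of the 82 (31.7%) were seen in a single library. The share of rows seen was 52.7% (78 of 148) in the ruminant miR-2284 and miR-2285 family, 41.1% (74 of 180) among miRNAs numbered 6000 and upward, and 75.6% (309 of 409) among let-7 and the miRNAs numbered below miR-2284. Of the detected rows of that last list, 63.8% were present in every library, against 11.0% of the detected members. The same share was 10.3% in the miR-2284 and miR-2285 family and 21.6% among miRNAs numbered 6000 and upward. The numbers from miR-3000 upward made up 20 of the members, with 8 detected, and the lower numbers made up 263, with 74 detected.

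The number of members seen followed the order of the library depths closely. The shallowest libraries, SUM replicate 3 and WIN replicate 1, showed 22 and 24 members at 214004 and 235340 reads. SUM replicate 1, WIN replicate 4 and WIN replicate 2 showed 37, 31 and 36 members at 517138, 558496 and 731675 reads. SUM replicates 2 and 4 showed 46 and 44 members at 887254 and 902642 reads, and WIN replicate 3 showed 49 at 1689467 reads. The order broke in 2 places, since SUM replicate 1 stood above the somewhat deeper WIN replicates 4 and 2, and SUM replicate 2 stood above SUM replicate 4. The season means were 37.3 ± 10.9 members in SUM and 35 ± 10.6 in WIN (SD, n = 4 libraries each), and the seasons overlapped. With every library brought to 214004 reads by calculation, the number of members seen would be 22 to 29.3 in SUM and 23.3 to 32.0 in WIN, so that the range from the lowest to the highest library narrowed from 22 to 49 members at full depth to 22 to 32.0 members at equal depth. Of the members seen in the shallowest library, 10 of 22 rested on 1 read, against 3 of 49 in the deepest.

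**Figure D1:**
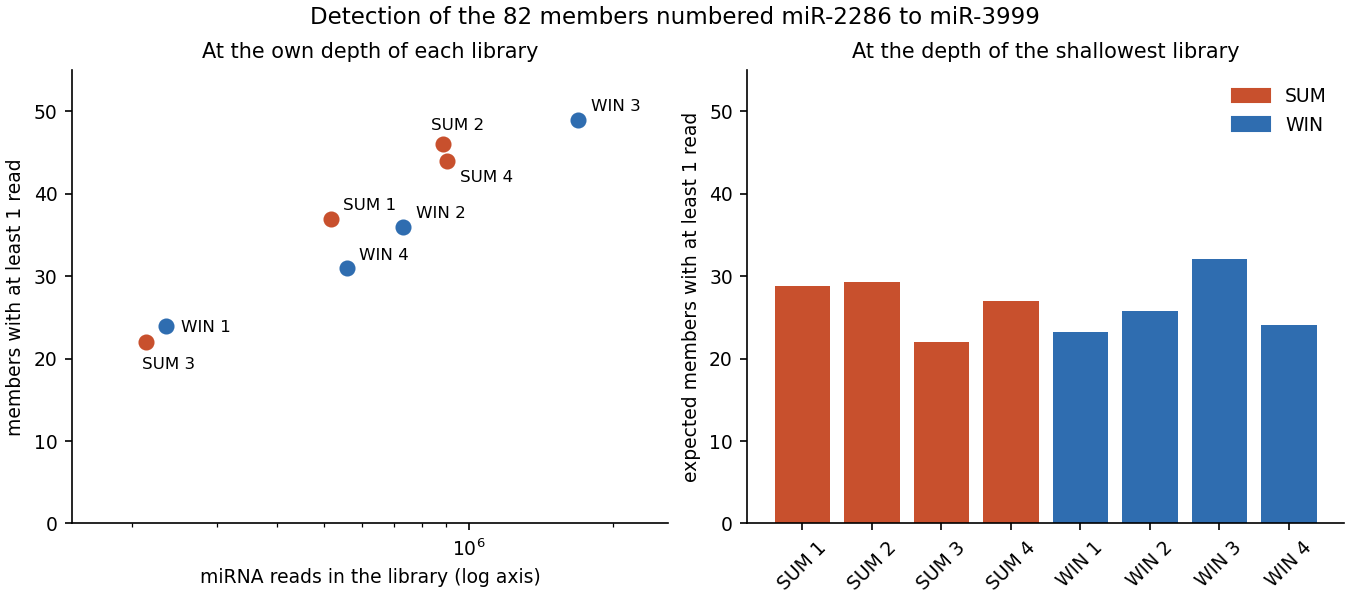
The left panel plots the members with at least 1 read against the miRNA reads of each library on a log axis, and the right panel plots the number of members that each library would show at the 214004 reads of the shallowest one (bars, one per library, SUM in orange and WIN in blue). The counts rise from 22 to 49 with depth on the left, and the bars on the right lie between 22 and 32.0 with both seasons mixed.

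A single miRNA carried most of the signal of the members. miR-3432a stood at 3578, 3581, 3093 and 3763 CPM in SUM replicates 1 to 4 and at 2194, 3368, 2540 and 3822 CPM in WIN replicates 1 to 4. Both the highest and the lowest value were thus in WIN, and the SUM libraries lay within the WIN range. It made up 76.0 to 86.4% of the summed CPM of the members in each library, and it ranked from 27th to 39th of all miRNAs of the library. RefSeq places its precursors inside HIP1, which encodes a clathrin-binding protein, and TP53BP1, which encodes a DNA repair protein.

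miR-3432b, named as a letter copy of miR-3432a, was far less abundant. It stood at 92.1, 93.7, 92.5 and 123 CPM in SUM and at 57.4, 55.8, 63.0 and 107 CPM in WIN. WIN replicate 4 reached above 3 of the SUM libraries, so the groups overlapped. The sequences of the copies were not compared here. Any reads that fit both copies may have been split between them, so both levels are uncertain. miR-3432b made up 1.63 to 3.17% of the reads of the pair.

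miR-3431 was the second member by level in every library except WIN replicate 1, where miR-2419-5p was above it. It stood at 251, 514, 221 and 667 CPM in SUM and at 61.3, 203, 170 and 175 CPM in WIN. Every SUM library was above every WIN library, with SUM replicate 3 (221 CPM) and WIN replicate 2 (203 CPM) the closest. miR-3431 made up 5.61 to 13.5% of the summed CPM of the members in SUM and 2.28 to 5.40% in WIN, again without overlap.

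The remaining levels fell away quickly. The 3 most abundant members of a library together held 86.0 to 92.8% of the summed CPM, and the 13 members with a mean above 10 CPM held 94.2 to 98.5%. The members numbered from miR-3000 upward held 86.8 to 92.8%, most of it in miR-3432a, miR-3431 and miR-3432b. Of the 82 detected members, 35 had a mean under 1 CPM and 26 had at most 3 reads in all libraries together. All members together held 22334 of the recovered reads (0.389%), against 0.131% for the miR-2284 and miR-2285 family and 0.190% for miRNAs numbered 6000 and upward. miR-3432a alone held 17989 of these reads, and the other members together held fewer than either of those lists.

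**Figure D2:**
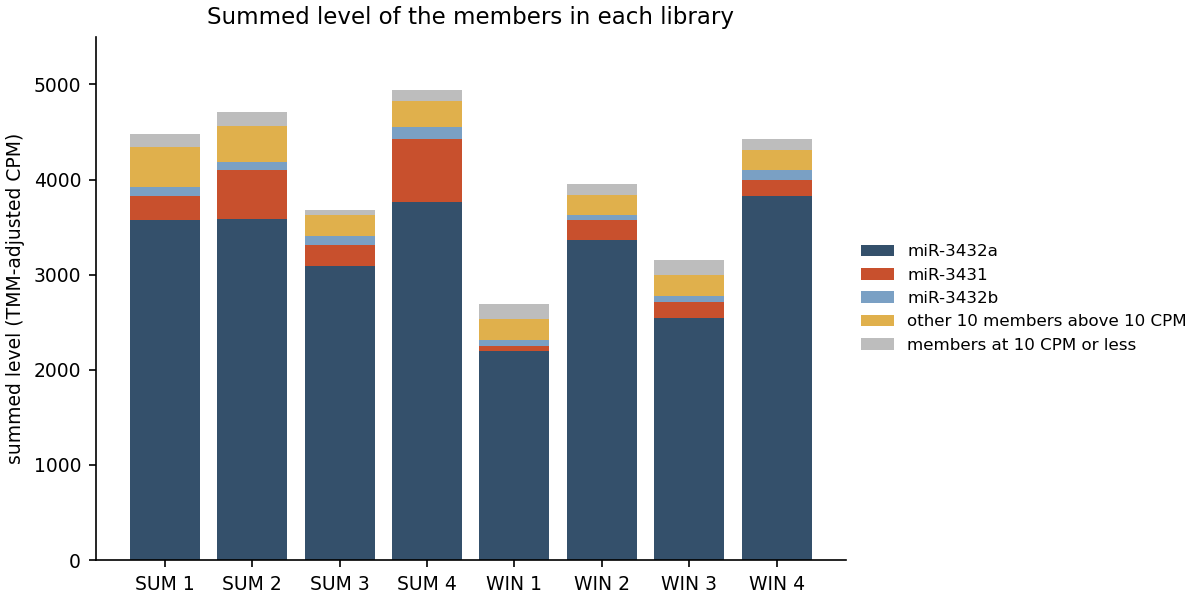
Stacked bars give the summed TMM-adjusted CPM of the members in each library, split into miR-3432a, miR-3431, miR-3432b, the other 10 members with a mean above 10 CPM, and the members at or below it. miR-3432a fills 76.0 to 86.4% of each bar, and the bar heights of the seasons overlap (3681 to 4939 CPM in SUM, 2688 to 4425 CPM in WIN).

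The summed level of the members stood at 4473, 4709, 3681 and 4939 CPM in SUM and at 2688, 3957, 3149 and 4425 CPM in WIN. The means were 4451 ± 547 and 3555 ± 782 CPM (SD, n = 4), a ratio of 1.25 with overlapping seasons. As a share of the whole table the members held 0.416 ± 0.022% in SUM and 0.378 ± 0.076% in WIN, also with overlap. Without miR-3432a the sum stood at 895, 1128, 587 and 1177 CPM in SUM and at 494, 589, 609 and 603 CPM in WIN, with means of 947 ± 269 and 574 ± 53.8 CPM and a ratio of 1.65. Of the SUM libraries, 3 stood above all WIN libraries on this measure, and SUM replicate 3 stood within the WIN range. miR-3431 alone supplied 413 CPM of the SUM mean and 152 CPM of the WIN mean, so the ratio of 1.65 does not describe the other members. These sums run over members chosen with earlier results known and are given without a test.

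The season difference of single members was tested with limma on log2(CPM + 1) across all 243 miRNAs whose mean exceeded 10 CPM. A call required both a fold change above 1.5 and an adjusted p (Benjamini-Hochberg over the 243) under 0.1. Over all tested miRNAs 7.82% were called, 5.35% as higher in SUM and 2.47% as lower. Of the 13 members that passed the filter, 1 was called higher in SUM (miR-2387), none was called lower, and 12 were not called. At an unadjusted p under 0.05, 3 members and 54 of the 243 miRNAs (22.2%) were found, with no member among them lower in SUM. The count test of edgeR on the recovered reads called 3 members higher (miR-2387, miR-2483-3p and miR-3431) and none lower, where 8.23% and 6.17% of the table were called. DESeq2 called the same 3 higher and none lower, at 9.47% and 9.05% of the table, and so did voom, at 8.23% and 6.17%. The fold change was positive for 10 of the 13, with a median log2 value of 0.95, beside 125 of 243 and a median of 0.02 over all tested miRNAs. In the miR-2284 and miR-2285 family 8 of 11 were positive, with a median of 0.47. Some members passed the filter only through the season where they were high. These were miR-2376 (means of 16.2 CPM in SUM and 4.36 in WIN), miR-2299-3p (16.6 and 7.22) and miR-2431-5p (7.77 and 17.3). The signs and the median thus depend in part on the filter, and some members are arms of the same hairpin. A shift of the members as a set was not tested. When every library was rescaled to the same summed CPM, the median of all tested miRNAs moved to -0.17 and that of the 13 to 0.77, with 9 of 13 positive. That scaling gave 11 miRNAs higher and 22 lower in the whole table, against 13 and 6 as deposited. The boundary of the filter ran between miR-2376 (mean 10.3 CPM) and miR-2448-3p (9.69 CPM).

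miR-2387, whose precursor lies in GTF2IRD1, a transcription factor gene, was the member called. It stood at 46.0, 64.7, 44.2 and 54.0 CPM in SUM and at 26.8, 24.1, 21.6 and 22.5 CPM in WIN. Every SUM library was above every WIN library, and the values rested on 11 to 47 reads per SUM library and 7 to 38 per WIN library. The seasons averaged 52.3 ± 9.34 and 23.7 ± 2.29 CPM (SD, n = 4), and the log2 fold change was 1.09 (SE 0.33, 95% interval 0.38 to 1.81, limma adjusted p = 0.094), a 2.14-fold difference on the log2(CPM + 1) scale. The spread within each season was no wider than counting of these reads gives, with a dispersion index (chi-square per degree of freedom, near 1 for counting alone) of 0.83 in SUM and 0.12 in WIN. The call rests on a narrow margin. It held without SUM replicate 3 (limma adjusted p = 0.078), and the adjusted p was 0.138 without SUM replicate 1, 0.189 without SUM replicate 2, 0.192 without SUM replicate 4, 0.112 without WIN replicate 1, 0.181 without WIN replicate 2, 0.162 without WIN replicate 3 and 0.179 without WIN replicate 4. The fold change was 0.99 to 1.17 on the log2 scale in these fits. With no filter beyond detection the limma adjusted p was 0.328.

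miR-2483-3p, from a hairpin in TENM1, a gene of the teneurin cell adhesion proteins, was close to the threshold. It stood at 60.7, 73.0, 52.3 and 56.5 CPM in SUM and at 19.1, 26.6, 34.0 and 36.4 CPM in WIN. The groups did not overlap. The means were 60.6 ± 8.93 and 29.0 ± 7.81 CPM (SD, n = 4), with a log2 fold change of 1.07 (SE 0.34, limma adjusted p = 0.104). edgeR, DESeq2 and voom gave adjusted p-values of 0.092, 0.091 and 0.094 for it, and limma gave 0.093 without SUM replicate 3. Without each of the other libraries the limma adjusted p was 0.154 to 0.215, and with no filter beyond detection it was 0.328. Of 20 alternative fits, 5 called miR-2483-3p.

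miR-3431, with the values given above, averaged 413 ± 214 CPM over the SUM libraries and 152 ± 62.4 CPM over the WIN libraries (SD, n = 4 each). Its log2 fold change was 1.41 (SE 0.46, 95% interval 0.41 to 2.42, limma adjusted p = 0.110). edgeR, DESeq2 and voom called it at adjusted p-values of 0.069, 0.022 and 0.056, and limma called it at 0.069 without SUM replicate 3. Without each of the other libraries the limma adjusted p was 0.104 to 0.268, and with no filter beyond detection it was 0.160. Of 21 alternative fits, 8 called miR-3431. Unlike miR-2387, its libraries of the same season differed by far more than counting allows, with dispersion indices of 48.9 in SUM and 7.73 in WIN. For each of these 3 members the exact permutation test over the 8 libraries gave p = 0.029 (two-sided), the smallest value that 4 against 4 can give. Of the 13 members tested, these 3 (23.1%) had seasons that did not overlap, beside 16.0% of all tested miRNAs.

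**Figure D3:**
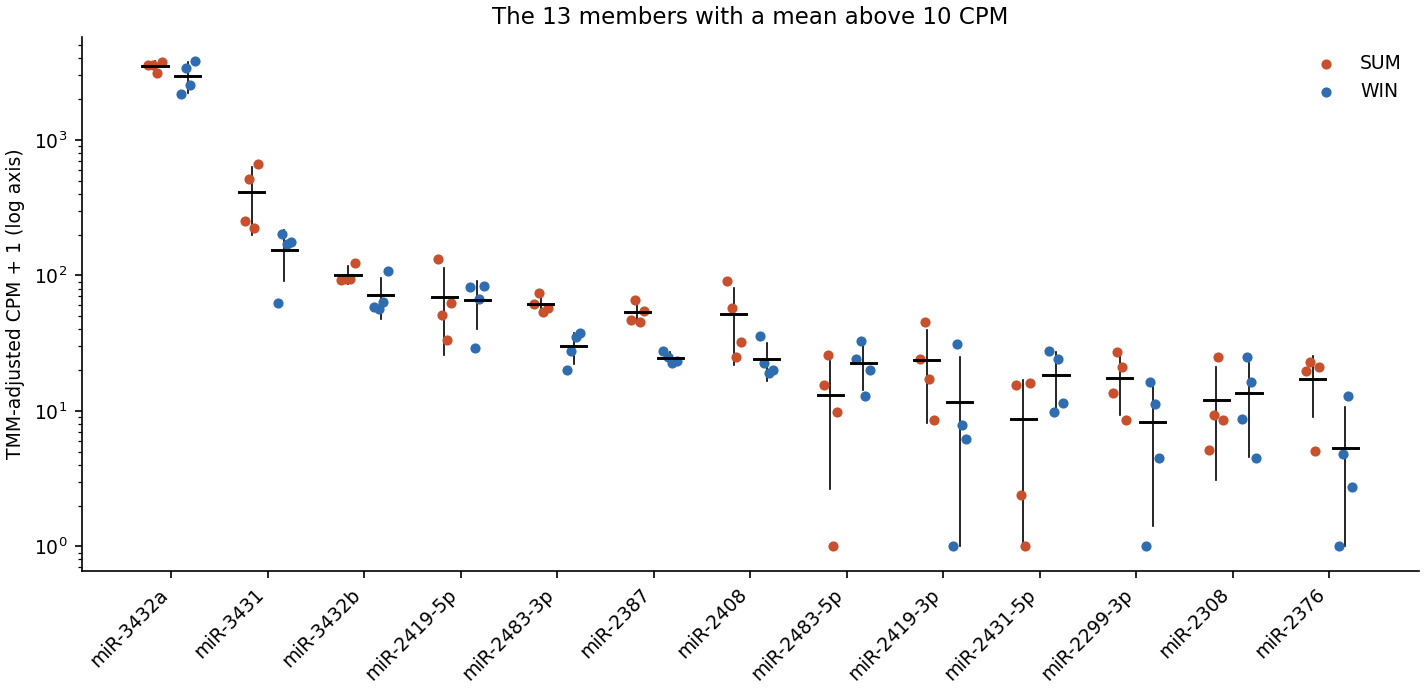
Each dot is 1 library, placed by its TMM-adjusted CPM plus 1 on a log axis, for the 13 members with a mean above 10 CPM (SUM in orange, WIN in blue), with the season mean as a horizontal bar and 1 SD as a vertical line cut off at 0 CPM. Dots at 1 are libraries without a read. The seasons do not overlap for miR-3431, miR-2483-3p and miR-2387.

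The most abundant member did not pass the test. miR-3432a averaged 3504 ± 287 CPM over the SUM libraries and 2981 ± 746 CPM over the WIN libraries (SD, n = 4 each), and its log2 fold change was 0.26 (SE 0.24, 95% interval -0.27 to 0.80, limma adjusted p = 0.552). The interval does not include a change of the size found for miR-2387. miR-3432b had a log2 fold change of 0.54 (SE 0.30, limma adjusted p = 0.320).

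miR-2408, whose precursor lies in PC, the gene of pyruvate carboxylase, stood at 89.96, 56.5, 24.1 and 31.4 CPM in SUM and at 34.5, 21.5, 18.2 and 19.1 CPM in WIN. Its high values were in SUM replicates 1 and 2, and the groups overlapped (log2 fold change 0.95, SE 0.47, limma adjusted p = 0.250). Without SUM replicate 3 and WIN replicate 1, the 2 shallowest libraries, limma called it at an adjusted p of 0.087. That setting was chosen after seeing the data and was the only 1 of 20 alternatives run here that called miR-2408. Without SUM replicate 1 the log2 fold change was 0.61 (limma adjusted p = 0.487). The paper, which used the test of the CLC Genomics Workbench, did report miR-2408 as higher in summer. It also reported miR-2387, miR-2483-3p and miR-3431 as higher. miR-2419-5p spanned 32.2 to 132 CPM in SUM and 27.9 to 83.2 CPM in WIN, with a log2 fold change of 0.02 (SE 0.48, limma adjusted p = 0.990), which was -0.17 after rescaling.

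The remaining 6 members that passed the filter had means of 10.3 to 16.7 CPM, near the level of a few reads. These were miR-2483-5p, miR-2419-3p, miR-2431-5p, miR-2299-3p, miR-2308 and miR-2376. Their log2 fold changes ran from -1.75 (miR-2431-5p) to 2.04 (miR-2376), with SEs of 0.79 to 1.01 and limma adjusted p-values of 0.247 to 0.935. Leaving out 1 library at a time moved the log2 fold change between -2.31 and -0.98 for miR-2431-5p, -1.99 and -0.43 for miR-2483-5p, 1.42 and 2.65 for miR-2376, 0.79 and 2.45 for miR-2419-3p, 0.78 and 2.12 for miR-2299-3p and -0.60 and 0.23 for miR-2308. miR-2376, from a precursor in TAPBP, the gene of the peptide-loading protein tapasin, stood at 18.8, 22.04, 4.02 and 20.1 CPM in SUM and at 0, 3.801, 11.9 and 1.73 CPM in WIN, with overlap. All 5 zeros among these members fell in the 2 shallowest libraries. miR-2483-5p and miR-2431-5p were at 0 in SUM replicate 3, and miR-2419-3p, miR-2299-3p and miR-2376 were at 0 in WIN replicate 1.

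**Figure D4:**
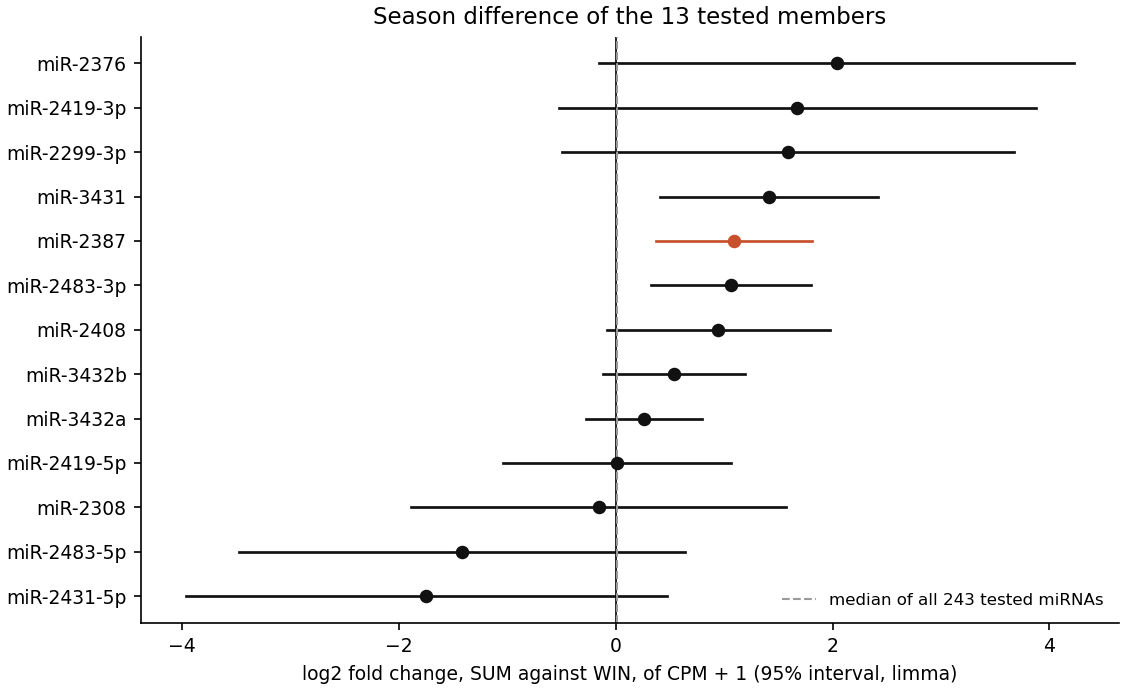
Dots give the log2 fold change of SUM against WIN on the log2(CPM + 1) scale and lines its 95% interval from limma for the 13 tested members, with the called member in orange and the median of all 243 tested miRNAs as a dashed line at 0.02. The intervals of miR-3431, miR-2387 and miR-2483-3p lie above 0, and those of the members with means near 10 CPM are the widest.

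RefSeq (ARS-UCD2.0, used for names and neighbours only) lists a precursor for 279 of the 283 members, and 215 of these (77.1%) lie within a protein-coding gene when strand is not considered. The share was 84.0% for the detected members and 74.2% for the members at 0. For the members with a mean above 10 CPM it was 69.2% (9 of 13). The comparison lists had 78.5% (miRNAs numbered 6000 and upward), 69.3% (miR-2284 and miR-2285 family) and 54.8% (let-7 and the miRNAs numbered below miR-2284). The precursor of miR-3431 lies in GABRE, which encodes a subunit of the GABA-A receptor, and miR-224 and miR-452 lie in the same gene. miR-452 stood at 374, 499, 113 and 466 CPM in SUM and at 130, 98.8, 121 and 118 CPM in WIN. SUM replicate 3 was within the WIN range and the other SUM libraries were above it, and limma called miR-452 higher in SUM (log2 fold change 1.43, SE 0.43, adjusted p = 0.094), a call that held only without SUM replicate 3 when each library was left out in turn (adjusted p of 0.0035 without it and 0.114 to 0.217 without each of the others). miR-224 stood at 1291, 1515, 776 and 2135 CPM in SUM and at 865, 1088, 994 and 1288 CPM in WIN. It was highest in SUM replicate 4 and lowest in SUM replicate 3, and it was not called (log2 fold change 0.36, SE 0.32, limma adjusted p = 0.544).

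Precursors give a mature miRNA from the 5p arm, the 3p arm or both. The table holds both arms for 34 hairpins among the members. Neither arm was seen for 13 of them and both arms were seen for 11, and of the 21 with reads, 10 had more from the 5p arm and 11 more from the 3p arm. For 4 hairpins the arms together had a mean above 10 CPM, and the share of reads from the 5p arm was compared between the seasons. This share does not depend on the scaling of a library.

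Over all libraries together the hairpin of miR-2483 gave 247 of 342 reads from its 3p arm, while the 5p arm was slightly ahead in WIN replicates 1 and 2. The 5p arm held 7 of 36, 18 of 71, 0 of 13 and 7 of 52 reads in SUM, and 6 of 11, 25 of 46, 21 of 81 and 11 of 32 reads in WIN. As shares with 95% Clopper-Pearson intervals, the 4 SUM libraries stood at 19.4% (8.19 to 36.0), 25.4% (15.8 to 37.1), 0% (0 to 24.7) and 13.5% (5.59 to 25.8). The WIN libraries stood at 54.5% (23.4 to 83.3), 54.3% (39.0 to 69.1), 25.9% (16.8 to 36.9) and 34.4% (18.6 to 53.2). The groups did not overlap, but SUM replicate 2 (25.4%) and WIN replicate 3 (25.9%) were alike within their intervals. The SUM libraries averaged 14.6 ± 10.9% and the WIN libraries 42.3 ± 14.4% (SD, n = 4), a difference of -27.7 percentage points (exact permutation test, two-sided p = 0.029, 0.114 after Benjamini-Hochberg adjustment over the 4 hairpins). That p is the smallest that 4 against 4 libraries can give. With only 1 of the 4 hairpins at it, the adjusted p could not fall below 0.114. The difference stayed between -33.2 and -22.9 points when any library was left out. These means weigh every library equally, including SUM replicate 3 with 13 reads and WIN replicate 1 with 11. With the reads of a season pooled, the 5p arm held 32 of 172 (18.6%) in SUM and 63 of 170 (37.1%) in WIN. Those shares lie closer together than the means.

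The other hairpins did not separate the seasons. The 5p arm of miR-2419 held 73.5 ± 16.8% of reads in SUM and 83.2 ± 23.9% in WIN (n = 4, exact permutation p = 0.514, adjusted 0.686). Its lowest shares were in the second replicate of each season, 36 of 68 reads (52.9%, interval 40.4 to 65.2) in SUM and 22 of 46 reads (47.8%, 32.9 to 63.1) in WIN. miR-2431 gave 67.8 ± 30.7% in SUM (n = 3, since SUM replicate 3 had no read of either arm) and 85.8 ± 24.1% in WIN (n = 4, exact permutation p = 0.429, adjusted 0.686). miR-2299 gave 25.3 ± 9.75% and 31.3 ± 47.3% (n = 4, exact permutation p = 0.971). The WIN mean of miR-2299 rests on WIN replicate 1, where 5 of 5 reads were from the 5p arm (100%, 47.8 to 100), and without that library SUM was higher by 17.0 points. Its arms are too sparse for an order, with 2 to 24 reads per library.

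**Figure D5:**
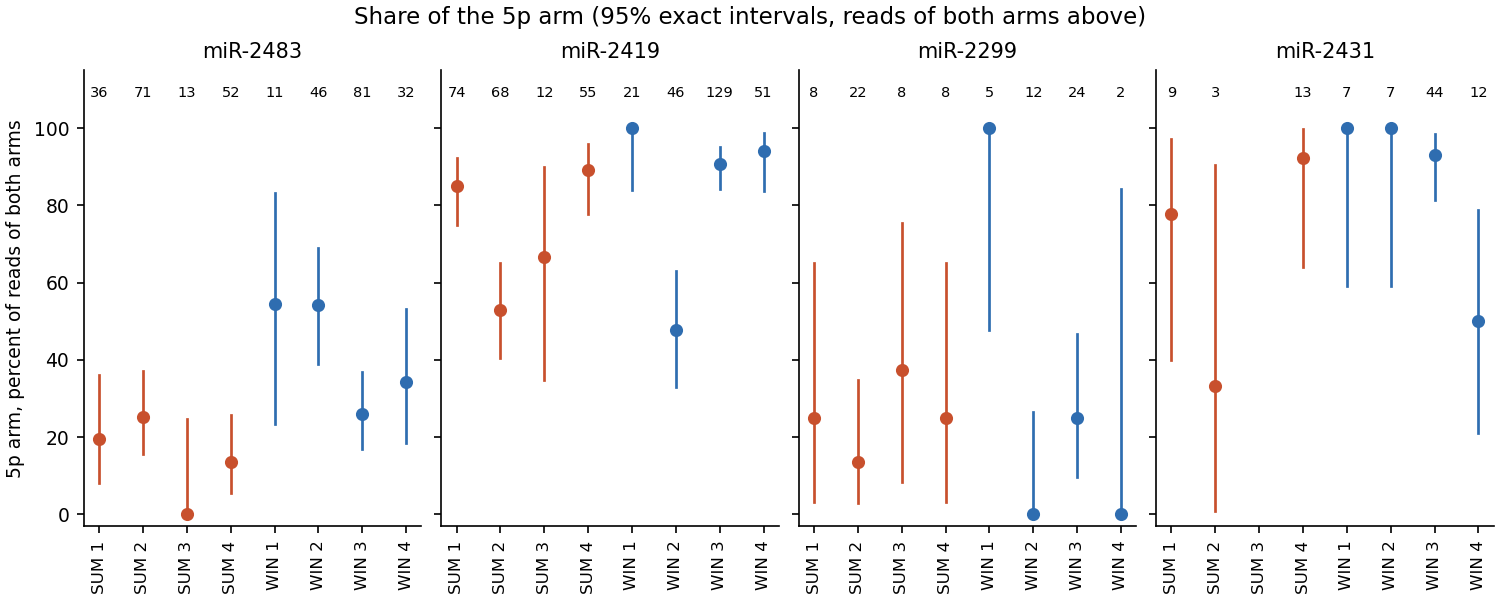
Dots give the percentage of the reads of both arms that came from the 5p arm in each library, with 95% Clopper-Pearson intervals as lines and the number of reads above, for the 4 hairpins with a joint mean above 10 CPM (SUM in orange, WIN in blue). Only for miR-2483 do all SUM dots (0 to 25.4%) lie below all WIN dots (25.9 to 54.5%), and the nearest of them have overlapping intervals.

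The 69 detected members at a mean of 10 CPM or less had a median of 6 reads in all libraries together. Their mean was higher in SUM for 32 and in WIN for 37, and 35 were seen in both seasons, 14 in SUM only and 20 in WIN only. The highest of them were miR-2448-3p (mean 9.69 CPM), miR-2366 in MAP1A, a microtubule protein gene (8.02 CPM), miR-3533 in ACTG1, the gene of gamma-actin (7.04 CPM), miR-2336 (6.66 CPM) and miR-2382-5p in PGP, a phosphatase gene (6.49 CPM), and the seasons overlapped for each. The weaker arms of the compared hairpins were also among them. miR-2299-5p had 2, 3, 3 and 2 reads in SUM and 5, 0, 6 and 0 in WIN. miR-2431-3p had 2, 2, 0 and 1 reads in SUM and 0, 0, 3 and 6 in WIN, so both were scattered over the seasons.

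Among all detected miRNAs, 43 of 545 (7.89%) had seasons that did not overlap, and 39 of these 43 had a mean above 10 CPM. That share is thus not a background of like level for the rare members. Of the 69 members at 10 CPM or less, 1 had seasons that did not overlap (1.45%). This was miR-2339, from a precursor in ELAC2, the gene of a tRNA-processing enzyme, with 1, 1, 1 and 2 reads in the SUM libraries and 0 in each WIN library (exact permutation p = 0.029, the smallest possible with n = 4 per season). At 3 reads or fewer in every library, it lies within the limit that a count of 0 allows, and no fold change is given. Of the 26 members seen in a single library, 9 were seen in the deepest one, WIN replicate 3, and 1 to 5 in each of the others. The highest single-library count was 13 reads of miR-2300b-3p in WIN replicate 3. Among members seen in more than 1 library, miR-2454-3p, in DNMT1, the gene of the maintenance DNA methyltransferase, was the most uneven of those named here, with 9 reads (34.5 CPM) in WIN replicate 1, 7 in SUM replicate 2, 1 in WIN replicate 3 and 0 in the rest. miR-2300b-3p and miR-2454-3p were picked after their values were seen.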

How the data were processed

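Small RNA of follicular fluid EVs was sequenced after isolation with a Norgen kit and TruSeq Small RNA preparation. The authors trimmed the reads (Q-score and length), used CLC Genomics Workbench 21 to map them to ARS-UCD1.2 and to annotate them against miRBase release 22, and deposited 1 TMM-adjusted CPM value for each mature miRNA and library. The submitters' processing notes also name bcl2fastq, Bowtie2 2.2.2 and DESeq2. The deposited values are a signal whose columns sum to 860872 to 1222033. Division by the CPM of 1 read gave whole reads for 100% of values (tolerance 0.001), and the libraries held 214004 to 1689467 of them. Reads without molecular identifiers are not independent molecules, so intervals and floors cover counting error only.

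The seasons were compared in limma 3.58.1 (R 4.3.3, eBayes with trend, no covariate) on log2(CPM + 1) values of the 243 miRNAs that averaged above 10 CPM. A call required a fold change above 1.5 and an adjusted p under 0.1. Fold changes are on that scale, and for low members they differ from those of the count tests, with miR-2376 at 2.04 in limma and 1.51 in edgeR on the log2 scale. The count tests of edgeR 4.0.16, of DESeq2 1.42.0 and of voom were run on recovered reads as alternatives, and edgeR called 20 miRNAs higher and 15 lower. Other alternatives were the pseudocount, the filter, the scaling, the variance model, the replicate block and leaving out each library. The scripts were tested on simulated data. Equal-depth counts are exact hypergeometric expectations. Single values were compared by exact permutation in Python 3.11.15. Pools are the replicates, and since pools of the same cows may enter both seasons, p-values treat them as unrelated.

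The members and lists were chosen with earlier results of these data known. Named members are those with a mean above 10 CPM, their other arms and copies, the next 5 by level, and rarer members at the smallest exact p and seen in at least 4 libraries, with miR-2300b-3p and miR-2454-3p added after their values were seen. Host genes came from RefSeq ARS-UCD2.0 by overlap, without strand. The mature sequences and their seeds were not analysed here.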

Additional observations from a re-analysis of the deposited data

Results flagged for a closer look

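In each season the highest or lowest of the 4 libraries was compared with the rest for 69 groups of values, and 5 groups held a library far from the other 3 (by Dixon's 95% critical value, which chance passes in about 5% of groups). miR-3432b stood at 123 CPM in SUM replicate 4, with the other SUM libraries at 92.1 to 93.7 CPM. It stood at 107 CPM in WIN replicate 4, with the other WIN libraries at 55.8 to 63.0 CPM. miR-2431-3p stood at 10.4 CPM in WIN replicate 4, with the others at 0 to 1.70 CPM, and in the same library the 5p arm of miR-2431 held 50% of the reads of both arms (6 of 12, 95% Clopper-Pearson interval 21.1 to 78.9), with the others at 93.2 to 100%. The summed level of the members without miR-3432a was 494 CPM in WIN replicate 1, with the other WIN libraries at 589 to 609 CPM.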

How the results depend on the processing

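Most detected members stood at low levels, with 69 of the 82 at a mean of 10 CPM or less. The calls rest on small margins. The count of members called higher in SUM was 1 as reported. It was 0 with no filter beyond detection and 0 at an adjusted p below 0.05, 2 in limma without a trend and with robust eBayes, and 3 with edgeR, DESeq2 and voom. Leaving out 1 library gave 3 calls higher without SUM replicate 3 and 0 without each of the other libraries. None was lower in any of these fits. Without the 2 shallowest libraries, an alternative chosen after seeing the data, it was 3 (miR-2387, miR-2408 and miR-3431). The mean above 50 CPM gave 1 call, miR-3431, in place of miR-2387. Members at 50 CPM or less have no value under that filter, and DESeq2 gave no adjusted p for miR-2376, miR-2299-3p and miR-2308. Over the whole table the 19 calls became 8 with no filter, 33 after rescaling, 35 with edgeR, 45 with DESeq2, 35 with voom, 33 without the 2 shallowest libraries and 0 to 30 with 1 library left out.

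The log2 ratio of the summed CPM was 0.32, with 0.21 to 0.45 when a library was left out and 0.72 without miR-3432a. The mean number of members detected was 36.1, with 34.3 to 38.1 when a library was left out, 23.9 at 3 reads or more and 14.0 above 10 CPM. Leaving out a library moved the difference of the 5p share to between -16.4 and 17.0 points for miR-2299, -21.5 and -2.86 for miR-2419, -30.2 and -0.75 for miR-2431 and -33.2 and -22.9 for miR-2483. Without the 2 shallowest libraries that of miR-2299 was 12.9 points, against -5.97 as reported. Among the log2 fold changes, the sign of miR-2308 (-0.15) turned to 0.16 without SUM replicate 1, 0.23 without WIN replicate 2 and 0.03 without WIN replicate 3, with a range of -0.60 to 0.23. That of miR-2419-5p (0.02) turned to -0.17 after rescaling, -0.36 without SUM replicate 1 and -0.34 without WIN replicate 2, with a range of -0.36 to 0.31. The causes were not tested. Of 447 values recomputed, 376 kept their direction and their side of the threshold or stayed within their spread.

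The deviations of same-numbered libraries had correlations of -0.02, 0.30, 0.06 and 0.24 for numbers 1 to 4. Since 2 of these were not over 0.1, the numbers were not taken as a pairing. A fit with the replicate number as a block called 1 member higher, miR-3431 (log2 fold change 1.41, limma adjusted p = 0.050), and not miR-2387 (1.09, 0.125), with 15 miRNAs higher and 10 lower over the table.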
